A study of Mus musculus with 6 samples.

Results

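The secreted Wnt antagonists described here were 10 genes. They were the secreted frizzled-related protein genes Sfrp1, Sfrp2, Sfrp4, Sfrp5 and Frzb, the Wnt inhibitory factor gene Wif1, the Dickkopf genes Dkk1, Dkk2 and Dkk3, and the sclerostin gene Sost. Members were chosen by name, as every probe whose gene name in the scanner files is one of these, which gave 13 of 41174 probes and 10 of 19505 named genes. Sfrp1, Dkk1 and Sost had 2 probes each, and the other 7 genes had 1. Expression was read on 6 one-colour arrays of autopod tissue, the hand or foot plate of the limb, from C57BL/6 mouse embryos at stage E14.5. Cells were captured by laser from 3 sites, the interzone that precedes a joint, growth plate chondrocytes, and interdigital tissue, each in wild type and in Tgfbr2Prx1KO embryos, with 1 array for each combination. The mutant's name stands, by convention, for loss of Tgfbr2, which encodes a TGF-beta receptor, through a Prx1-driven recombinase, which acts in limb mesenchyme and not in epidermis. RNA came from 2 embryos per genotype, and their division over arrays is not known here. The design asks how levels differ between these sites and between genotypes at 1 site.

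Wnt proteins are secreted signals that bind Frizzled receptors together with the coreceptors Lrp5 and Lrp6, and canonical signalling then stabilises beta-catenin. Secreted frizzled-related proteins and Wif1 bind Wnt proteins outside the cell. Dkk1, Dkk2 and Sost bind the coreceptors instead, while Dkk3 is a divergent relative whose place in Wnt signalling is less clear. In the limb, canonical Wnt signalling favours joint over cartilage fate, Frzb is known as a cartilage-derived antagonist, and Dkk1 is known for its part in interdigital cell death.

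The 250 bases before the start of Frzb and Sfrp5 are shown because these antagonists had their highest control level in the same tissue, the growth plate. RefSeq promoters of GRCm38.p6 matched 7 of the 10 members. The Frzb stretch is chr2:80447397-80447646 and the Sfrp5 stretch chr19:42202253-42202502, both on the minus strand and written 5′ to 3′. Capitals mark a match to a SMAD motif, CAGAC or its complement GTCTG, which the Frzb stretch lacks.
Frzb: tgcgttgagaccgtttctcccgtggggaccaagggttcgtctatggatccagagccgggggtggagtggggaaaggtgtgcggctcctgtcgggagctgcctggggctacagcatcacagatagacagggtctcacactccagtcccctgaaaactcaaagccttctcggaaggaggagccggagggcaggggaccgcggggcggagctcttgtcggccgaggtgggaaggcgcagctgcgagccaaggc
Sfrp5: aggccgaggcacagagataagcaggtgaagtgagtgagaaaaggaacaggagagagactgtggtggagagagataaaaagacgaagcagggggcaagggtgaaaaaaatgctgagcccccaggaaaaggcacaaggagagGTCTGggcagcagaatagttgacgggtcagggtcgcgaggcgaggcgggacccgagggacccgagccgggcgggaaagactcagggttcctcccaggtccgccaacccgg
The motifs searched on both strands were ATCAAAG for TCF/LEF factors, AACAAT for SOX factors and CAGAC for SMAD factors. None of the 7 member windows held the TCF/LEF or SOX letters, which 3.21% and 9.42% of all 32851 RefSeq windows of this length held. The SMAD letters stood 110 bases before the start of Sfrp5 and 238 bases before that of Sfrp2, and in 42.2% of all windows. The GC content ran from 55.6% in Dkk2 to 64.4% in Frzb, beside a median of 52.4% over all windows. Such matches describe the letters only.

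Levels are given on the log2 scale, as processed signal relative to the 75th percentile of the same array, which is 0. No group had a replicate, so folds between 2 arrays have no error from replicates and no p, and in tissue samples fewer cells of a type cannot be told apart from less RNA per cell. Spots of 1 probe differed within an array by a median SD of 0.072 to 0.099 on the log2 scale, which covers reading error only. The growth plate control array stood apart, with a median signal of 103 units and 72.3% of spots well above background, against 340 to 502 units and 77.3% to 88.3% elsewhere. Tgfbr2 at its brightest probe was -2.42 there and 1.20 to 2.49 on the other arrays. Whether that probe lies in the deleted part is not stated, so it does not check the genotype. The interzone pair shared a slide, whereas the other mutant arrays lay on a slide without controls, so in those pairs slide and genotype cannot be told apart.

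Markers of the captured cells and of other cell types also differed between arrays, given here as summed linear levels relative to the 75th percentile, control before mutant. The 11 cartilage markers summed to 157 and 79.3 in interzone, 554 and 62.0 in growth plate, and 91.6 and 63.8 in interdigital tissue, so among mutants the growth plate array was not the highest. The 10 epidermis markers summed to 17.8 and 161 in interzone, 69.2 and 170 in growth plate, and 2.60 and 146 in interdigital tissue, with Cdh1 and Trp63 not well above background on the growth plate and interdigital control arrays. The 10 interzone markers summed to 47.5 and 14.2 in interzone, 27.7 and 12.4 in growth plate, and 14.3 and 21.2 in interdigital tissue, with Gdf6 not well above background on the interzone mutant array or either growth plate array. The 8 muscle markers summed to 14.4 and 43.0 in interzone, 42.6 and 13.9 in growth plate, and 20.9 and 14.4 in interdigital tissue. Over the 6 arrays, sums ranged from 11.7 to 22.5 for 7 interdigital, 38.6 to 84.3 for 8 osteoblast, 0.712 to 11.6 for 7 endothelium, 2.73 to 10 for 7 macrophage and 77.5 to 250 for 5 erythroid markers. The endothelial genes Kdr, Tie1 and Tek were not well above background on the growth plate control array. The part of other cell types in the values below was not tested.

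Among control arrays the tissue of the highest level differed between antagonists, although with 1 array per tissue some tissue is highest for any gene. Frzb, Sfrp5 and Sost were highest in growth plate, Sfrp1, Sfrp2, Sfrp4, Wif1 and Dkk2 in interzone, and Dkk1 and Dkk3 in interdigital tissue. Dkk2, Dkk3 and Sost lay within 2-fold between any pair of control tissues at their brightest probe. Before scaling, the Sost signal at that probe was lowest in growth plate, at 1603 units against 1793 in interzone and 1827 in interdigital tissue. The 75th percentile of these control arrays was 1105, 1604 and 1815 units in the same order, so the Sost rank came with the scaling. The other Sost probe was highest in control interdigital tissue, at least 3.54-fold above interzone and at least 2.64-fold above growth plate. Of 9 members measured in control interzone and growth plate, 3 were at least 2-fold higher in interzone (Sfrp1, Sfrp2 and Wif1) and 1 lower (Frzb), where 25.3% of all genes were higher and 23.4% lower (48.7% either way). Sfrp5 was at least 591-fold lower in interzone. Between interzone and interdigital tissue, 4 of 9 were higher in interzone (Wif1, Sfrp2, Sfrp1 and Sfrp4) and 2 lower (Dkk1 and Frzb), where 15.0% of all genes were higher and 14.7% lower (29.6% either way). Between growth plate and interdigital tissue, 2 of 10 were higher in growth plate (Sfrp5 and Frzb) and 3 lower (Sfrp1, Wif1 and Dkk1), where 24.7% of all genes were higher and 24.9% lower (49.7% either way). In both comparisons with growth plate, the members' share lay near that of all genes.

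**Figure D1:**
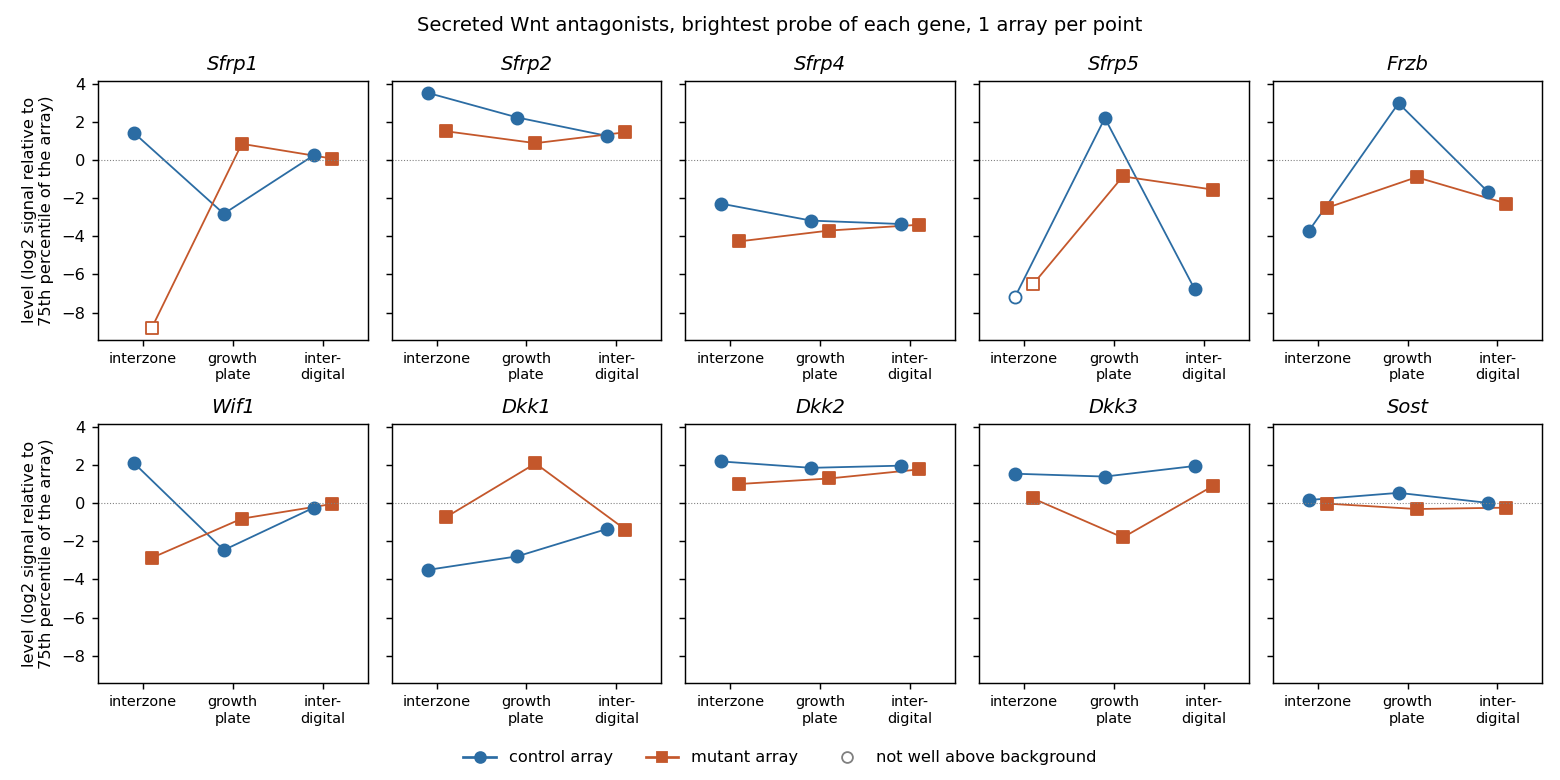
Level of each antagonist (vertical axis, log2 signal relative to the 75th percentile of the array) in interzone, growth plate and interdigital tissue (horizontal axis) at the gene's brightest probe, with circles for control and squares for mutant arrays and open symbols where the probe was not well above background. Frzb and Sfrp5 peak on the growth plate control array at 2.97 and 2.19, and Sfrp1 drops to -8.79 on the interzone mutant array.

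Frzb, a frizzled-related gene, had levels of -3.74, 2.97 and -1.70 in control interzone, growth plate and interdigital tissue and of -2.52, -0.90 and -2.29 in the same tissues of the mutant. The growth plate array was the highest in either genotype. Frzb was 14.7-fold lower in the mutant growth plate, a log2 difference of -3.87 that 8.03% of all genes exceeded in size. It was 2.33-fold higher in the mutant interzone and 1.50-fold lower in interdigital tissue. Its spread over the 3 tissues was 6.71 among control and 1.61 among mutant arrays. All 11 cartilage markers were lower in the mutant growth plate as well, and their part in the Frzb value was not tested.

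Sfrp5, another gene of this family, had levels of -7.19, 2.19 and -6.78 in the control tissues and of -6.52, -0.87 and -1.55 in the mutant tissues, in the same order. Neither interzone array was well above background, so no fold is given there. The processed signal was 5037 units in control growth plate and 1110 in the mutant, and 16.5 units in control interdigital tissue and 748 in the mutant. By levels scaled to each array's percentile, Sfrp5 was 8.30-fold lower in the mutant growth plate and 37.5-fold higher in mutant interdigital tissue. The interdigital difference of 5.23 was exceeded in size by 0.287% of all genes, and came to 2.92 with normexp background correction. Epidermis markers were higher on the same interdigital mutant array (7 of 7 measured), and their part in the Sfrp5 value was not tested.

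Wif1, whose protein binds Wnts and is not related to Frizzled, had levels of 2.10, -2.46 and -0.24 in control interzone, growth plate and interdigital tissue and of -2.87, -0.81 and -0.05 in the mutant. The control interzone was the highest of all arrays and the mutant interzone the lowest. Wif1 was 31.4-fold lower in the mutant interzone, a difference of -4.97 that 1.58% of all genes exceeded in size, and of -3.19 with normexp background correction. In the growth plate it was 3.13-fold higher in the mutant, a difference of 1.65 that came to 0.83 with quantile normalization and to 0.52 with the deposited value table, both under 2-fold. In interdigital tissue it was 1.14-fold higher.

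Sfrp2 and Sfrp4 encode Wnt-binding proteins of the frizzled-related family. Sfrp2 had levels of 3.52, 2.22 and 1.25 in the control tissues and of 1.50, 0.88 and 1.45 in the mutant tissues, with the control interzone highest. It was 4.03-fold lower in the mutant interzone, 2.54-fold lower in growth plate and 1.14-fold higher in interdigital tissue, and the growth plate difference of -1.34 came to -0.81 with quantile normalization. Its spread over tissues was 2.26 in control and 0.63 in mutant arrays. Sfrp4 had levels of -2.29, -3.18 and -3.36 in the control tissues and of -4.27, -3.70 and -3.40 in the mutant tissues. It was 3.94-fold lower in the mutant interzone, a log2 difference of -1.98 that turned to 0.66 with normexp background correction, and within 2-fold in the other tissues.

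Sfrp1 had a pair of probes, and in the interzone they went opposite ways. The brightest probe had levels of 1.42, -2.82 and 0.24 in control interzone, growth plate and interdigital tissue and of -8.79, 0.84 and 0.073 in the mutant. Its interzone signal was 4294 units in the control and 4.19 units in the mutant, not well above background, which makes Sfrp1 at least 244-fold lower there. The log2 difference was -3.27 with normexp background correction and -4.34 with the mean over probes, both smaller in size than this bound, -7.93 on the log2 scale. The other probe, at -2.27, -4.63 and -2.80 in the control tissues and -0.74, -2.28 and -3.15 in the mutant tissues, was 2.88-fold higher in the mutant interzone. In the growth plate the probes were 12.7-fold and 5.08-fold higher in the mutant, and in interdigital tissue both lay within 2-fold. They lie on chromosome 8, from 22233645 to 22233704 and from 22232957 to 22233016, in positions given by the files without a build.

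Dkk1, which encodes a coreceptor-binding antagonist, was highest on the growth plate mutant array at both of its probes. The brightest had levels of -3.50, -2.79 and -1.35 in control interzone, growth plate and interdigital tissue and of -0.75, 2.08 and -1.38 in the mutant. The other had levels of -3.08, -3.42 and -2.15 in the control tissues and of -3.66, -0.74 and -3.86 in the mutant tissues. In the growth plate, Dkk1 was 29.1-fold and 6.38-fold higher in the mutant by the respective probes, and 4.14% of all genes exceeded the former difference in size. In the interzone the brightest probe was 6.72-fold higher and the other 1.50-fold lower. In interdigital tissue the brightest was 1.03-fold lower and the other 3.26-fold lower.

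**Figure D2:**
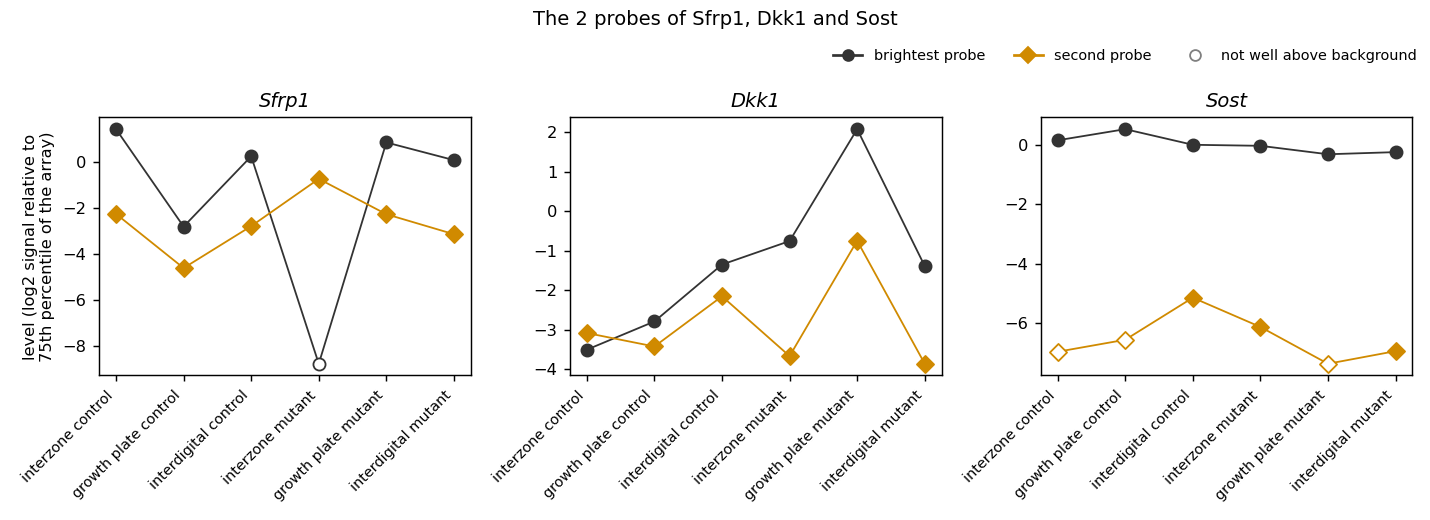
Level (vertical axis, log2 signal relative to the 75th percentile of the array, with a scale of its own in each panel) of the brightest probe (circles) and the other probe (diamonds) of Sfrp1, Dkk1 and Sost on the 6 arrays (horizontal axis), with open symbols where a probe was not well above background. The Dkk1 probes are both highest on the growth plate mutant array, at 2.08 and -0.74, while the Sfrp1 probes part on the interzone mutant array, at -8.79 and -0.74.

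Dkk2, Dkk3 and Sost had lower scaled levels on every mutant array than on any control array at their brightest probe. Dkk3 had levels of 1.54, 1.39 and 1.94 in control interzone, growth plate and interdigital tissue and of 0.25, -1.80 and 0.89 in the mutant, and was 2.45-fold, 9.14-fold and 2.08-fold lower in these tissues. Dkk2, a coreceptor ligand like Dkk1, had levels of 2.18, 1.85 and 1.96 in the control and of 1.0, 1.29 and 1.76 in the mutant tissues, and was 2.27-fold lower in the mutant interzone and within 2-fold elsewhere. Its unscaled signals overlapped between genotypes, at 7275, 3975 and 7068 units in the control and 3714, 4946 and 7455 units in the mutant tissues. Sost, an antagonist made by osteocytes in mature bone, had levels of 0.16, 0.54 and 0.0097 in the control and of -0.025, -0.31 and -0.24 in the mutant tissues, within 2-fold in each pair. Before scaling, the Sost signal at this probe was 1793, 1603 and 1827 units in the control and 1825, 1631 and 1862 units in the mutant tissues. The 75th percentile used for scaling was 1604, 1105 and 1815 units on the control and 1856, 2022 and 2195 units on the mutant arrays. So the Sost levels were lower in the mutant through the scaling, while the signal was slightly higher. The other Sost probe was well above background on 3 arrays and was 3.49-fold lower in mutant interdigital tissue, with levels of -5.15 and -6.96. In the interzone that probe went the other way, at least 1.79-fold higher in the mutant, with levels of -6.98 and -6.14. With Sfrp4, whose nearest control and mutant arrays were at -3.36 and -3.40, 4 of the 8 members read on all arrays had control and mutant levels that did not overlap and were lower in the mutant. Of all 15590 such genes, 12.2% were lower in this way and 4.5% higher, with 0 members higher. The count was 2 with quantile normalization (Dkk3 and Sost) and 2 with the deposited value table (Dkk2 and Dkk3). Of such genes, 8.45% and 7.56% were lower in this way under these settings. Sost also left the count with the mean over probes, so that Dkk3 alone kept its place under the 6 alternatives tried.

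In the interzone pair, most measured antagonists were lower in the mutant. Of 8 members measured on both arrays, 5 were at least 2-fold lower (Wif1, Sfrp2, Sfrp4, Dkk3 and Dkk2) and 2 higher (Dkk1 and Frzb), where 23.1% of all genes were lower and 17.5% higher (40.6% either way). The median log2 difference was -1.24 over these members and -0.13 over 16669 genes, whose SD was 1.66. Interzone markers (6 of 9) and cartilage markers (7 of 11) were lower on the same array, while epidermis (9 of 10), muscle (7 of 8), macrophage (5 of 7) and endothelial markers (3 of 7) were higher. Normexp background correction moved the median of all genes to 0.32 and the share of higher calls among genes past 2-fold from 43.2% to 72.1%, and the deposited value table moved them to 0.12 and 54.3%. Members lower numbered 4 with normexp, where Sfrp4 left the count, and 4 with the deposited table, where Dkk2 did at -0.93. Of 16669 genes, 2083 were lower with normexp and 3084 with the deposited table.

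In the growth plate pair, antagonists went both ways. Of 10 members, 4 were at least 2-fold lower in the mutant (Frzb, Dkk3, Sfrp5 and Sfrp2) and 3 higher (Dkk1, Sfrp1 and Wif1), where 32.1% of all genes were lower and 22.3% higher (54.4% either way), so this share lay near the background. The median difference was -0.70 over the members and -0.43 over 16166 genes. Cartilage markers (11 of 11) were lower on the mutant array and epidermis markers (5 of 8 measured) higher. Muscle (5 of 8) and erythroid markers (4 of 5) were also lower, and endothelial markers (3 of 4 measured, with 3 more as bounds) higher. Scaling moves all values of this pair together. The deposited value table put the median of all genes at -1.56, the share of higher calls at 16.8% against 41.0%, and 7 members lower with 2 higher. A percentile over probes detected on all arrays put them at -0.072, 54.4%, 3 and 3, and the mean over probes gave a share of 51.3%. Of 16166 genes, 10445 were lower and 2110 higher with the deposited table, and 3615 lower and 4316 higher with that percentile.

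In the interdigital pair, 8 of 10 antagonists lay within 2-fold at their brightest probe. Sfrp5 was higher and Dkk3 lower in the mutant, where 10.2% of all genes were higher and 15.8% lower (26.0% either way). The members' share past 2-fold lay near that of all genes. The other probe was 3.26-fold lower in the mutant for Dkk1 and 3.49-fold lower for Sost, and Sost was at -1.03 with the mean over probes. The median difference was -0.10 over the members and -0.17 over 17792 genes. Dkk3 was under 2-fold with the deposited value table (-0.89) and with normexp background correction (-0.96). The share of higher calls, 39.1%, was 51.2% with that table and 49.1% with quantile normalization.

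**Figure D3:**
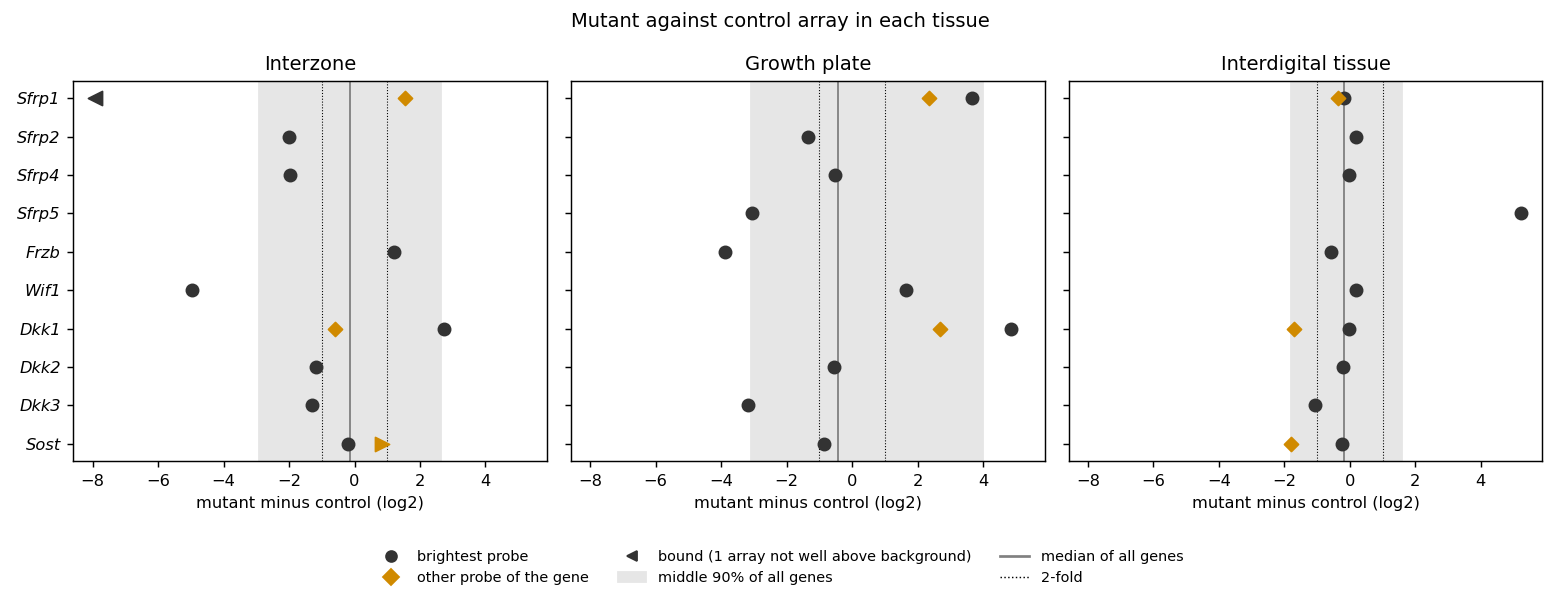
Mutant minus control difference (horizontal axis, log2) of each antagonist (vertical axis) in the 3 tissues, with dots for the brightest probe, diamonds for another probe and triangles for a bound; the grey band spans the middle 90% of genes measured on both arrays, the grey line is their median and dotted lines mark 2-fold. Wif1 and the Sfrp1 bound lie below and Dkk1 above the band in interzone, Frzb and Dkk3 below and Dkk1 above it in growth plate, and Sfrp5 above it in interdigital tissue at 5.23. The other Sost probe lies just below the band in interdigital tissue, at -1.80.

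The part played by the choice of probe was read over the whole array. Among genes with 2 measured probes whose brightest probe was past 2-fold between genotypes, the second brightest had the opposite sign for 38.3% of 2433 genes in interzone, 39.3% of 3036 in growth plate and 31.8% of 1581 in interdigital tissue. It was past 2-fold in the same direction for 38.8%, 41.5% and 36.3%. Dkk1 and Sfrp1 in growth plate were of the latter kind, and Dkk1 in interzone of the former. The 7 members with 1 probe have no such check.

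Shifts shared by the tissues were tested in a fit over all 6 arrays with tissue and genotype as terms. The fit takes the arrays of a genotype as independent, although its 2 embryos supplied 3 tissues, so some arrays may share an embryo. An effect shared by the arrays of a genotype counts toward genotype, so p-values for genotype may be too small. How sharing bears on the contrasts between tissues is not known here, since the division of embryos over arrays is not. For genotype, limma called 0 of 18028 genes (0.0%) and 0 of 10 members at an adjusted p under 0.05, with 1189 genes and 1 member at an unadjusted p under 0.05. With the deposited value table it called 13 genes, 0 of them members. The member with the unadjusted p under 0.05 was Dkk3, whose level was lower by 1.85 in the mutant (SE 0.64, adjusted p = 0.681, limma), in 3 of 3 tissues. Dkk1 was higher by 2.52 (SE 1.08, adjusted p = 0.681, limma), in 2 of 3 tissues. Between tissues, limma called 0 genes in each of 3 contrasts, with 1168 genes at an unadjusted p under 0.05 for interzone against growth plate, 550 for interzone against interdigital tissue and 1003 for growth plate against interdigital tissue. For interzone against growth plate, 2 members, Sfrp5 and Frzb, had an unadjusted p under 0.05 (limma), and each other tissue contrast had 0. Sfrp5 was lower by 7.52 in interzone than in growth plate (SE 2.10, adjusted p = 0.722, limma), although neither interzone array was well above background. Frzb was lower by 4.16 in interzone than in growth plate (SE 1.37, adjusted p = 0.761, limma), in 2 of 2 genotypes. The fit has 2 residual degrees of freedom, and a p that misses the threshold does not show that levels were alike.

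The tissue of the highest level changed with genotype for most members. Of 8 members read on all arrays, the same tissue was highest in both genotypes for 3 (Sfrp2 in interzone, Frzb in growth plate and Dkk3 in interdigital tissue), beside 34.0% of 15590 genes. The range over tissues was narrower among mutant arrays for 5 members (Sfrp2, Sfrp4, Frzb, Wif1 and Sost), or 62.5%, beside 60.1% of these genes, so neither share stood far from the background. Among mutant arrays, 1 of 8 members was at least 2-fold higher in interzone than in growth plate (Dkk3) and 3 lower (Dkk1, Wif1 and Frzb), where 21.1% of all genes were higher and 18.3% lower (39.4% either way). Between interzone and interdigital tissue 1 of 8 was lower in interzone (Wif1) and 0 were higher among those measured on both arrays, where 18.1% of all genes were lower and 18.1% higher (36.2% either way). As bounds at the main setting, Sfrp1 at its brightest probe was at least 95.8-fold lower in mutant interzone than in interdigital tissue. Against mutant growth plate, Sfrp1 was at least 163-fold lower there. Its other probe went the opposite way, 5.31-fold higher in mutant interzone than in interdigital tissue and 2.91-fold higher than in growth plate. Sfrp5 was at least 31.0-fold lower in mutant interzone than in interdigital tissue and at least 50-fold lower than in growth plate. Between growth plate and interdigital tissue 2 of 10 were higher in growth plate (Dkk1 and Frzb) and 1 lower (Dkk3), where 13.3% of all genes were higher and 16.1% lower (29.4% either way).

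Genes whose levels followed a member over the 6 arrays were ranked by Pearson's r, a description over shared arrays. For Frzb the nearest of 5823 genes were Rabep1, Ppwd1 and Bysl, with 149 genes at r above 0.9. For Wif1 they were Slc25a22, Syne1 and Kdm8 (99 genes), for Sfrp2 Tespa1, Pcyt1b and Taf4b (69 genes), for Dkk1 Tmem62, Ubn2 and Ftx (16 genes) and for Dkk3 Acyp1, Morc4 and Tmem192 (34 genes). Sfrp4 was followed by Psen2, Sim2 and Foxj2 (32 genes), Dkk2 by Foxo1, Gk5 and Vkorc1 (49 genes) and Sost by Ssr4, C130026I21Rik and Olfr340 (221 genes). With so few arrays, many genes reach a high r.

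Other genes of the pathway were counted from 6 lists with 79 genes, of which Notum stands in both the response and the inhibitor list. Wnt ligand genes past 2-fold in the mutant numbered 5 higher and 1 lower of 16 in interzone, 4 higher and 7 lower of 17 in growth plate and 5 higher and 2 lower of 18 in interdigital tissue, among those measured. The shares over all genes were 17.5% higher and 23.1% lower in interzone, 22.3% and 32.1% in growth plate and 10.2% and 15.8% in interdigital tissue, and the counts of every list here stand against them. Wnt3, a ligand of the limb ectoderm, had levels of -3.81, -5.46 and -5.02 in control interzone, growth plate and interdigital tissue and of 0.82, 1.99 and 0.73 in the mutant. Every mutant array was above every control array, by 24.8-fold, 174-fold and 54.0-fold within the tissues. Wnt10a, another ligand of ectoderm, was 95.2-fold higher in mutant interdigital tissue and, as bounds, at least 57.6-fold higher in interzone and at least 148-fold higher in growth plate, and Wnt5a, a mesenchymal ligand, was 8.93-fold lower in the mutant interzone, 16.7-fold lower in growth plate and within 2-fold in interdigital tissue. Epidermis markers were higher on the same mutant arrays, and their part in the Wnt3 and Wnt10a values was not tested.

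Receptor and coreceptor genes past 2-fold numbered 3 higher and 4 lower of 17 in interzone, 4 higher and 2 lower of 17 in growth plate and 6 higher and 2 lower of 18 in interdigital tissue, where 40.6%, 54.4% and 26.0% of all genes were past 2-fold either way. Kremen2, whose protein is a receptor for Dickkopf proteins, was 9.22-fold higher in the mutant interzone, 9.13-fold higher in growth plate and 40.6-fold higher in mutant interdigital tissue. The Frizzled gene Fzd4 was 25.0-fold lower in the mutant interzone, 4.24-fold lower in interdigital tissue and within 2-fold in growth plate. Fzd9, of the same family, was 61.8-fold lower in the mutant growth plate, 5.49-fold higher in interzone and 2.47-fold higher in interdigital tissue. R-spondins, which amplify Wnt signals, and their receptors numbered 1 higher and 1 lower of 7 in interzone, 3 higher and 1 lower of 6 in growth plate and 1 higher and 1 lower of 7 in interdigital tissue. Among them Rspo3 was 5.26-fold lower in interzone, 7.33-fold higher in growth plate and 3.08-fold lower in interdigital tissue of the mutant.

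Intracellular transducers and Wnt-secretion genes past 2-fold numbered 2 higher and 4 lower of 16 in interzone, 3 higher and 4 lower of 16 in growth plate and 1 higher and 1 lower of 16 in interdigital tissue, and Porcn, needed to acylate Wnt proteins, was 16.5-fold lower in the mutant interzone, 3.58-fold higher in growth plate and 3.31-fold higher in interdigital tissue. Response genes, which canonical signalling induces in many tissues, numbered 2 higher and 3 lower of 10 in interzone, 3 higher and 2 lower of 9 in growth plate and 4 higher and 1 lower of 10 in interdigital tissue, and the interzone and growth plate counts lay near the 40.6% and 54.4% of all genes past 2-fold. Nkd1 was 13.8-fold higher in the mutant growth plate, 3.88-fold lower in interdigital tissue and 1.86-fold higher in interzone. Axin2 was 2.83-fold lower in the mutant interzone, 12.1-fold higher in interdigital tissue and, as a bound, at least 39.5-fold higher in growth plate. Lef1 was 3.13-fold lower in the mutant interzone, a log2 difference of -1.65 that turned to 0.27 with the mean over probes, 3.87-fold higher in the mutant growth plate and 6.22-fold higher in interdigital tissue. Other secreted inhibitors and relatives numbered 2 higher and 1 lower of 6 in interzone, 2 higher and 2 lower of 6 in growth plate and 0 higher and 1 lower of 6 in interdigital tissue. Sostdc1, a relative of Sost, was 6.95-fold lower in the mutant interzone, 39.4-fold higher in growth plate and within 2-fold in interdigital tissue. Dkk4 was at least 9.24-fold lower in the mutant interzone, at least 106-fold higher in growth plate and at least 10.6-fold higher in interdigital tissue, as bounds.

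**Figure D4:**
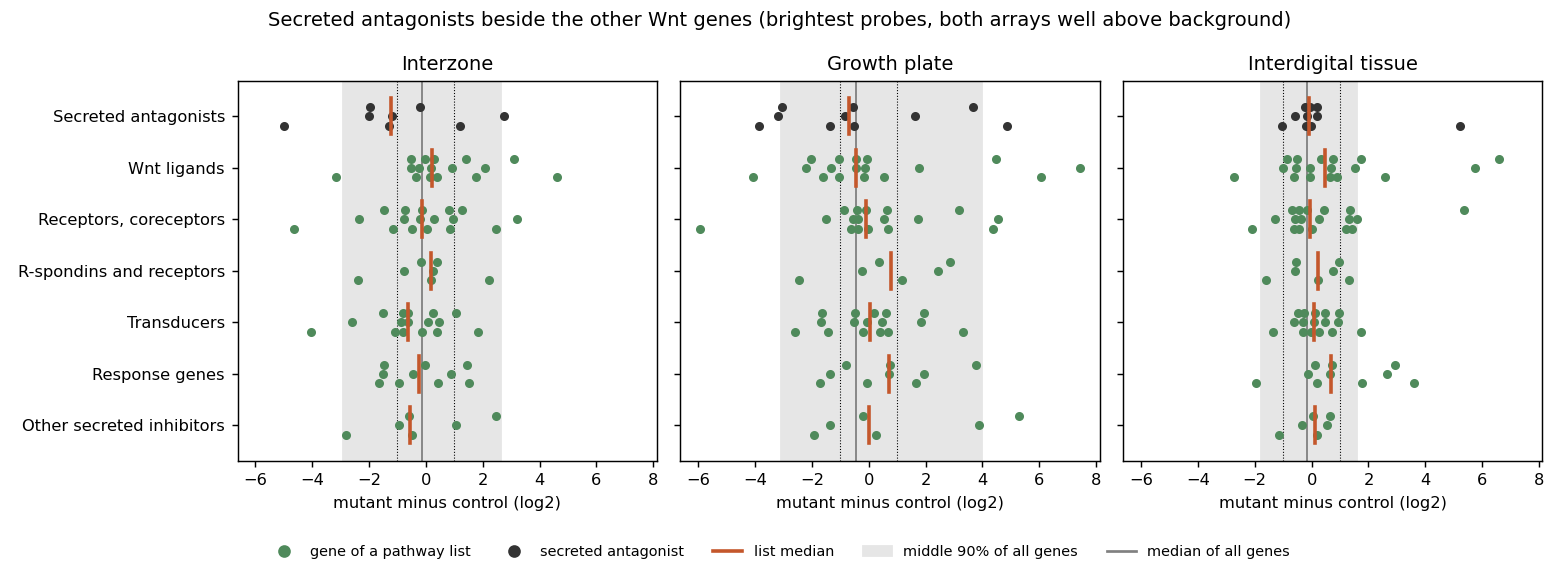
Mutant minus control difference (horizontal axis, log2) of the secreted antagonists (black) and of the 6 other Wnt lists (green) in each tissue, for genes well above background on both arrays, with a bar at each list's median, a grey band for the middle 90% of all genes and a grey line at their median. The antagonist median is -1.24 in interzone, -0.70 in growth plate and -0.10 in interdigital tissue, and the response gene median is -0.24, 0.71 and 0.68.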

How the data were processed

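Per the labels' protocols, captured RNA was amplified as cDNA and 250 ng of product were labelled with Cy3. The authors' scanner files give spot intensity, background-subtracted by Agilent Feature Extraction 9.5.1.1 per the file headers, with 0 spots saturated. The deposited value table holds a ratio, each array's processed signal over its median, as found by comparison with the scanner files. Groups came from the titles, since the descriptions of 5 samples name irradiated human blood, and the interdigital mutant's title spells the allele Tbr2Prx1KO. Control and outlier spots were left out, spots of 1 probe were averaged, and from the deposited intensities log2 levels were computed relative to each array's 75th percentile over all spots that are not controls. Probes were named through RefSeq (22951 by accession, 6659 by symbol, 3109 by older symbol, 8455 unnamed), and the probe with the highest mean level stood for a gene.

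Differences of at least 2-fold were counted where both arrays were well above background. Where 1 array was not, a bound was taken against its lowest signal well above background or the probe's own, whichever was higher. Bounds belong to the main setting and may not hold under another background correction. For Sfrp1 in the interzone pair, normexp gave -3.27 against a bound of -7.93. The fit used limma 3.58.1 (R 4.3.3) with Benjamini-Hochberg adjustment on genes well above background on at least 3 arrays. It was also run on simulated data, with shifts equal in all tissues and a noise SD below the real median residual SD of 0.735. That run therefore does not show how the fit performs on these arrays. Other steps used Python 3.11.15. Alternatives were another percentile, quantile normalization, normexp with an offset of 50, the deposited table, the mean over probes, 4-fold, no detection filter, slide as a term and each tissue left out. All members are named. From each other Wnt list the genes past 2-fold could be named, at most 4 per list and pair, largest first and bounds last. For members read on all arrays, the 3 genes most like them were taken among genes with an SD of at least 1. The members, lists and tests were chosen with earlier results of these data known. Precision is limited by the number of arrays.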

Additional observations from a re-analysis of the deposited data

Results flagged for a closer look

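For 4 of 10 antagonists the mutant was at least 2-fold higher than the control in 1 tissue and at least 2-fold lower in another. There was 1 array per group, and the difference between tissues was not tested. Past 2-fold either way were 40.6% of all genes in interzone, 54.4% in growth plate and 26.0% in interdigital tissue. The share of all genes going opposite ways was not counted, so the count of 4 has no background beside it. Sfrp1 at its brightest probe had a bound of -7.93 (log2) in interzone and a difference of 3.66 in growth plate, -11.59 between them. Its other probe was higher in the mutant in both tissues (1.53 and 2.34). Wif1 differed by -4.97 in interzone and 1.65 in growth plate, -6.62 between them. The growth plate difference of Wif1 was under 2-fold with quantile normalization (0.83) and with the deposited value table (0.52). Frzb differed by 1.22 in interzone and -3.87 in growth plate, 5.09 between them. Sfrp5 differed by -3.05 in growth plate and 5.23 in interdigital tissue, -8.28 between them. All of these pairs of differences use the growth plate control array, on which 72.3% of spots were well above background.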

How the results depend on the processing

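The member differences were recomputed under 5 alternatives, which gave 150 values. Of these, 135 kept their side of 2-fold, and their direction where past it, 14 crossed 2-fold, and 1 reversed, Sfrp4 in interzone at 0.66 with normexp. Lef1 in interzone reversed to 0.27 with the mean over probes and Pygo1 in interzone from -2.60 to 0.75 with normexp. Without the detection filter the differences are the same by construction, and Sfrp1 in interzone stands at -10.21, against -3.27 with normexp and -4.34 with the mean over probes. At 4-fold, 1 member was higher and 2 were lower in the mutant interzone, and 0 were lower in interdigital tissue. Of all genes, 1309 were higher and 1729 lower of 16669 in interzone at 4-fold, and 685 of 17792 lower in interdigital tissue. The count lower in growth plate was 7 with the deposited value table, where 10445 of 16166 genes were lower. The count lower in interdigital tissue was 0 with that table, 0 with normexp and 2 with the mean over probes. Genes lower there numbered 2188 of 17792, 1980 of 17792 and 3139 of 17827 in the same order. Between mutant interzone and interdigital tissue, 2 members were 2-fold apart with normexp, 2 with the mean over probes and 3 without the detection filter. The share of all genes 2-fold apart was 36.2% at the main setting and was not counted under these alternatives. The count of members lower on every mutant array, added after seeing the data, was 2 with the percentile over detected probes, 2 with quantile normalization and 2 with the deposited table. Of the 15590 genes read on all arrays, 10.6%, 8.45% and 7.56% were lower in this way under these settings. Dkk1 at its brightest probe was higher on every mutant array, a count of 1, with quantile normalization, 1 with the deposited table and 1 with normexp. The shares of these genes higher in this way were 4.87%, 3.42% and 4.98%. At the main setting the other Dkk1 probe was lower in mutant interzone (-3.66) and mutant interdigital tissue (-3.86) than on any control array. For genotype, limma called 13 genes with the deposited value table, 0 of them members, and 0 under the other alternatives. The cause was not tested. Leaving out each tissue in turn for genotype, and the third tissue for each contrast between tissues, gave 0 to 0 calls, which shows no stability where the full fit called 0. The limma fit compares genotypes within tissues, and no block by embryo was fitted, since the labels tie no array to an embryo. Members near background, such as Sfrp5 in interzone and the dim Sost probe, are limited by their signal.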
